A study of Mus musculus with 6 samples.

Results

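The endoplasmic reticulum (ER) folds secreted and membrane proteins, and the 32 genes described here encode its chaperones and folding enzymes together with the sensors, transcription factors and targets of the unfolded protein response (UPR). No member passed the test between c-Maf KO and WT macrophages, and most differences were small. The luminal chaperones Hspa5, Hsp90b1 and Calr and the degradation genes Herpud1 and Syvn1 were lower in every c-Maf KO sample than in every WT sample, with log2 differences of -0.34 to -0.12. P4hb, a disulfide isomerase, and Asns, asparagine synthetase, were higher in every c-Maf KO sample, with differences of 0.13 and 0.17. Of the 32 genes, 9 were lower in this way (28.1%), where 8.86% of all genes were, and 2 were higher (6.2%), where 11.1% were. After centring each sample on its median these counts were 6 and 3, against 5.37% and 13.3% of all genes. The members were chosen by gene name. A gene is represented by its non-control probe of highest mean signal on the scanner arrays, and the 32 are among 20198 genes or unnamed features tested.

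The series addresses how gene expression of macrophages depends on c-Maf, a transcription factor of the large Maf family that the gene Maf encodes. RNA was measured on 1-colour Agilent mouse arrays in 3 c-Maf KO and 3 WT samples of cells labelled polarized M2-like BMM, grown from mice that had received c-Maf KO or WT fetal liver cells (fetal liver chimeras). The labels give the tissue as liver for both groups, and ages and strains are not stated in the sources at hand. Both groups were cultured in DMEM with 10% FBS, antibiotics and 10 ng/ml of M-CSF, the macrophage growth factor, which was added again daily from day 4. The labels name no other cytokine. Nothing in them ties the replicates to separate animals, so the p-values cover the spread among these 6 samples, and part of that spread may be technical. Scanner files of 5 arrays were used (c-Maf KO replicates 2 and 3, WT replicates 1 to 3), and c-Maf KO replicate 1 enters through the deposited value table alone. Values below are log2 ratios of a probe to its median over the 6 samples, from that table, so 0 is the median sample. Differences are c-Maf KO minus WT.

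When unfolded proteins build up in the ER, 3 membrane sensors respond. IRE1 (Ern1) splices the mRNA of Xbp1 into its active form, ATF6 (Atf6) is cut to release a transcription factor, and PERK (Eif2ak3) phosphorylates eIF2 alpha, which lowers translation in general while raising that of Atf4. XBP1 and ATF6 bind ER stress response elements (ERSE) in the promoters of chaperone genes, together with the CCAAT-binding factor NF-Y, while ATF4 and CHOP (Ddit3) drive amino acid and feedback genes. In macrophages this response is known for its ties to cytokine production and to the load of secreted protein.

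The sites that link these genes to the response are shown first, because the members that carry them include most of those lower in every c-Maf KO sample. RefSeq promoter sequences (GRCm38.p6) were matched for 29 of the 32 members, and the 250 bases upstream of the annotated start were searched on both strands. The motifs were chosen after the expression values had been seen. The ERSE searched was CCAAT, 9 free bases (N) and CCACG, and it occurred in 8 of the 29 member promoters (27.6%), against 35 of 27025 genes in the table (0.13%). The related ERSE-II was searched as ATTGG, 1 free base and CCACG, and it occurred in the Herpud1 promoter alone among the members (3.4%), against 10 of 27025 genes (0.037%). The members were chosen as genes of this response, so higher shares among them follow from that choice and are no result of these data. Each site is printed 5′ to 3′ along the strand that carries it, with the fixed letters of the motif in capitals. Calr, Creld2 and the site of Hsp90b1 nearer its start carry it on the strand opposite to the gene. Positions run in the direction of the gene, so the printed letters of these sites begin at the position nearer the gene's start.
Hspa5, 65 to 47 bases upstream: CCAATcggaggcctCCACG
Hsp90b1, ending 89 bases upstream: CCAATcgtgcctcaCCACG
Hsp90b1, 212 to 194 bases upstream: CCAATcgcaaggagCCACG
Calr, 162 to 144 bases upstream: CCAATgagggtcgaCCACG
Canx, 145 to 127 bases upstream: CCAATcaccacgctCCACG
Pdia6, 98 to 80 bases upstream: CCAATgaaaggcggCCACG
Dnajc3, 105 to 87 bases upstream: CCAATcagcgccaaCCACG
Creld2, 126 to 108 bases upstream: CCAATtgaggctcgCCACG
Syvn1, 44 to 26 bases upstream: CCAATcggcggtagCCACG
Herpud1, 52 to 42 bases upstream: ATTGGgCCACG
A match of letters is a description of the sequence and no measure of binding in these cells. No match says only that these letters are not in the window.

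The whole upstream window is shown for Hspa5 (chr2:34771840-34772089, plus strand), the main luminal Hsp70, and for Herpud1 (chr8:94386179-94386428, plus strand), the member with the lowest difference. Syvn1 (chr19:6046326-6046575, plus strand) is shown as the degradation gene with an ERSE. P4hb (chr11:120573254-120573503, minus strand) is shown as an enzyme of the same compartment that was higher in c-Maf KO and has no match. Capitals mark the ERSE or ERSE-II match, and coordinates are of GRCm38.p6.
Hspa5: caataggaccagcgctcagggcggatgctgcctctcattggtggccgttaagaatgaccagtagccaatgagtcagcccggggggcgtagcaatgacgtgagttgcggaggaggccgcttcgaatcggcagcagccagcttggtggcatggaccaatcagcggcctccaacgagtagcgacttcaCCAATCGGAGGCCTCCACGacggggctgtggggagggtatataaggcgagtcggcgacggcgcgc
Herpud1: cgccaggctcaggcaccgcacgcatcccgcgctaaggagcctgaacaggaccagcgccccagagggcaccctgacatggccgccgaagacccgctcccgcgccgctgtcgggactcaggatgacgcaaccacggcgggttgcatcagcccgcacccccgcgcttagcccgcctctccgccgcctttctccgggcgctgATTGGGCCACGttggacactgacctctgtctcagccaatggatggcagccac
Syvn1: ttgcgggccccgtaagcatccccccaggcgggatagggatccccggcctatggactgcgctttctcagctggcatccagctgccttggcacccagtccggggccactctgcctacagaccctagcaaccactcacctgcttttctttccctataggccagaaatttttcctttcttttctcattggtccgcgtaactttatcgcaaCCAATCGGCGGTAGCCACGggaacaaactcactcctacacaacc
P4hb: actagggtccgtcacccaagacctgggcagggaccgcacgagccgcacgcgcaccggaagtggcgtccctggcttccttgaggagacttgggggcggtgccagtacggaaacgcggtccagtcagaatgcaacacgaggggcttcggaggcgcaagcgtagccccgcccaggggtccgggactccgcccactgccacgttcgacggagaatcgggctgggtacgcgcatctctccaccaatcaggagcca

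Maf, the targeted gene, measured -2.22, -2.36 and -1.92 in c-Maf KO replicates 1 to 3, against 1.92, 1.98 and 2.03 in WT replicates 1 to 3 (difference -4.14, SE 0.12, limma, Benjamini-Hochberg adjusted p = 0.000556). Every c-Maf KO sample lay far below every WT sample. The labels do not say which bases were deleted, so the place of this probe (chromosome 8, 118227736 to 118227795, mm9) relative to the deletion is unknown here. On the 5 arrays, 48.9% to 50.5% of 55681 probes were well above background and none was saturated. The 75th percentile of the processed intensity was between 411 and 495. Per the file headers, the arrays of c-Maf KO replicates 2 and 3 lay in row 2 and the WT arrays in row 1. Slide row and genotype thus cannot be told apart on these 5 arrays. The row of c-Maf KO replicate 1 is not known, and whether the arrays shared a slide or a scan batch was not determined.

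Over all genes, limma on the value table called 7 of 20198 genes at adjusted p under 0.05, which is 0.0347%. None of the 32 members was called, nor was any with a variance trend and robust estimation, which called 83 genes (0.411%). The smallest adjusted p of a member was 0.303, for Sdf2l1. At unadjusted p under 0.05, 5 members were lower in c-Maf KO (Hspa5, Calr, Sdf2l1, Herpud1 and Syvn1) and none was higher, where 12.6% of all genes passed, 5.86% lower and 6.7% higher. All 32 were well above background on all 5 arrays, so no member was lost to the filter on dim probes. In bulk RNA, fewer cells of a type and less RNA per cell cannot be told apart, and this holds for every difference below.

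Members leaned low by a small amount. The difference was negative for 26 and positive for 6, with a median of -0.064 on the log2 scale, where 49.3% of all genes were negative with a median of 0.0018. The c-Maf KO and WT samples did not overlap for 9 members lower in c-Maf KO (28.1%), where 8.86% of all genes were lower in this way. They did not overlap for 2 members higher in c-Maf KO (6.2%), where 11.1% of all genes were higher. After centring each sample on its median these counts were 6 lower and 3 higher, where 5.37% of all genes were lower and 13.3% higher, and after quantile normalization they were 6 and 3, against 6.25% and 13.1%. The differences of 28 members were under 0.2 in size. For 29 members the unadjusted 95% interval stayed within 0.5 log2 units of 0, a 1.41-fold difference either way, and the exceptions were Herpud1, Ppp1r15a and Chac1. The 21 members of folding and degradation had a median of -0.080, with 8 lower in every c-Maf KO sample and 1 higher. The 11 sensors, factors and ATF4 targets had a median of -0.030 (-0.061 on the 5 arrays), with 1 lower and 1 higher.

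**Figure D1:**
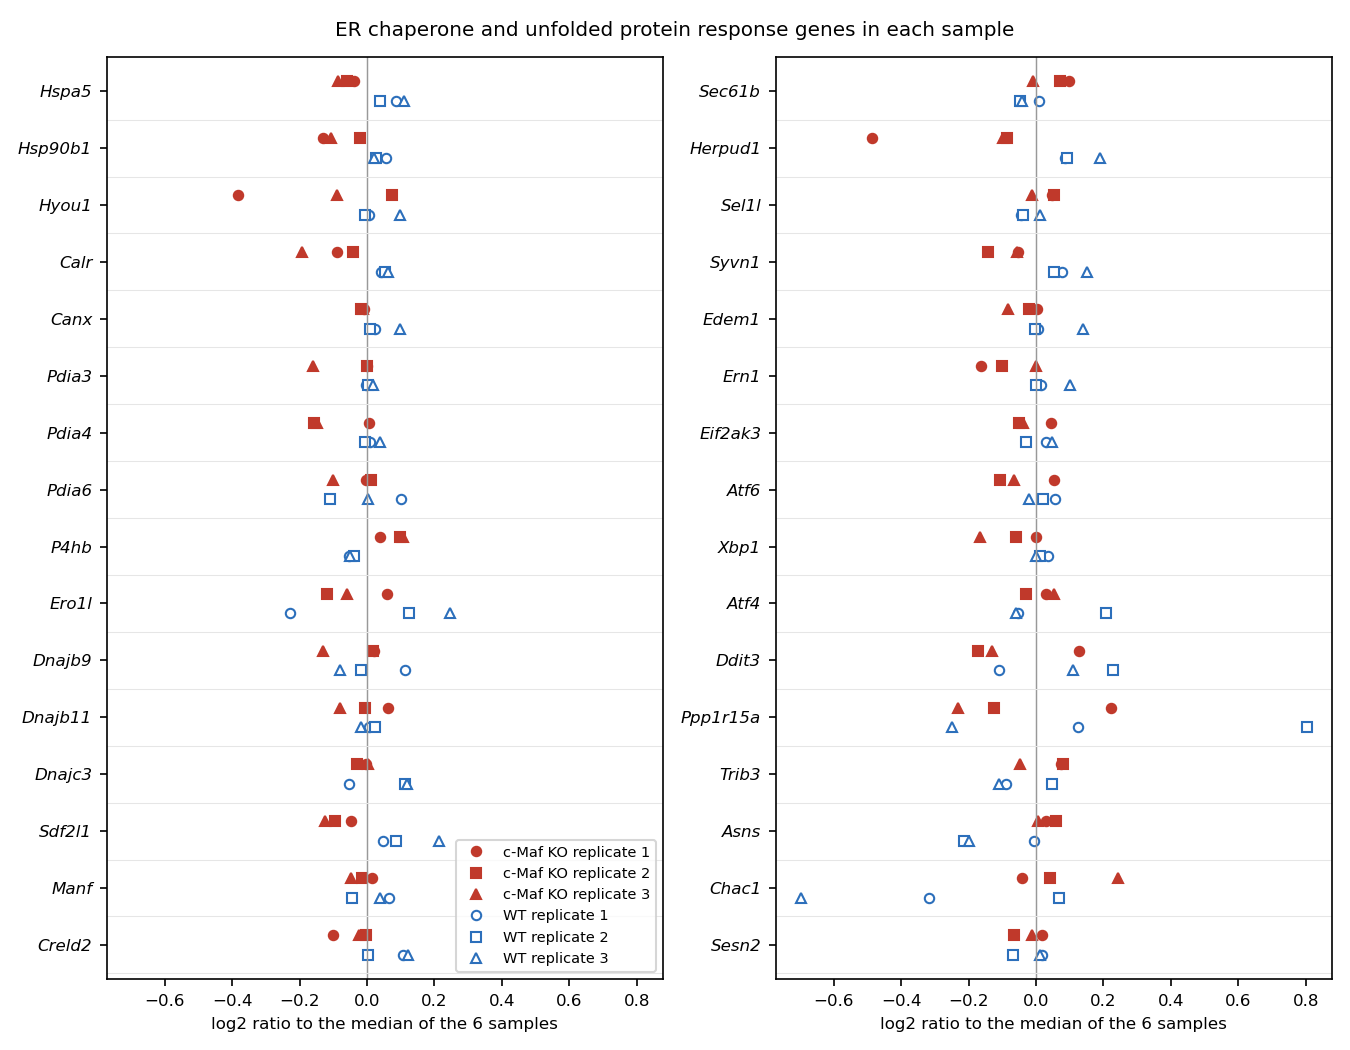
Log2 ratio of each of the 32 genes to its median over the 6 samples (horizontal axis), with c-Maf KO samples as filled red marks above and WT samples as open blue marks below in each gene's band. In 9 genes, Hspa5 and Herpud1 among them, all red marks lie left of all blue marks, in P4hb and Asns they lie right, and Herpud1 in c-Maf KO replicate 1 (-0.49) and Ppp1r15a in WT replicate 2 (0.80) stand far from the rest.

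Hspa5 encodes BiP, the main Hsp70 of the ER lumen, which also holds the 3 sensors inactive. It measured -0.037, -0.058 and -0.085 in c-Maf KO replicates 1 to 3, against 0.085, 0.037 and 0.11 in WT replicates 1 to 3 (chromosome 2, 34631913 to 34631972, mm9). All c-Maf KO values were below 0 and all WT values above it, with a gap of 0.075 between the groups. The difference was -0.14 (SE 0.054, limma, adjusted p = 0.377), or 0.909-fold. Hsp90b1 encodes GRP94, the Hsp90 of the lumen, which folds integrins and Toll-like receptors. It measured -0.13, -0.022 and -0.11 in c-Maf KO, against 0.057, 0.026 and 0.022 in WT (difference -0.12, SE 0.057, limma, adjusted p = 0.449). Here c-Maf KO replicate 2 came within 0.043 of the lowest WT sample. Hyou1, a large Hsp70 relative that exchanges the nucleotide of BiP, measured -0.38, 0.075 and -0.090 in c-Maf KO, against 0.0055, -0.0055 and 0.097 in WT. The groups overlapped, and c-Maf KO replicate 1 stood alone at the low end. The Hyou1 difference of -0.16 (SE 0.12) became -0.040 without that sample.

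Calreticulin (Calr) and calnexin (Canx) are the lectin chaperones, one soluble and one in the membrane, that hold glycoproteins by their trimmed sugars. Calr measured -0.090, -0.041 and -0.19 in c-Maf KO, against 0.041, 0.052 and 0.061 in WT (chromosome 8, 87366192 to 87366251, mm9). The WT samples lay close together, and all c-Maf KO samples lay below them (difference -0.16, SE 0.062, limma, adjusted p = 0.373). Canx measured -0.0088, -0.019 and -0.013 in c-Maf KO, against 0.024, 0.0088 and 0.098 in WT, for a difference of -0.057 (SE 0.055). The groups did not overlap, but the gap was 0.018, and they overlapped after quantile normalization or after centring each sample on its median.

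The disulfide isomerases and their oxidase, which make and rearrange disulfide bonds, went in more than one direction. P4hb encodes protein disulfide isomerase, which is also the beta subunit of the collagen prolyl 4-hydroxylase. It measured 0.037, 0.097 and 0.11 in c-Maf KO, against -0.054, -0.037 and -0.051 in WT (chromosome 11, 120422076 to 120422135, mm9). The WT samples were nearly alike and every c-Maf KO sample lay above them (difference 0.13, SE 0.053, limma, adjusted p = 0.40). Pdia4 measured 0.0055, -0.16 and -0.15 in c-Maf KO, against 0.0094, -0.0055 and 0.038 in WT. In c-Maf KO replicates 2 and 3 it was below all WT samples, and replicate 1 lay among them (difference -0.11, SE 0.067). Pdia3, the isomerase that works with the lectin chaperones, had differences from WT mainly in c-Maf KO replicate 3 (-0.16, against -0.0032, 0.0015 and 0.019 in WT), and without that replicate its difference was -0.0058 in place of -0.059. Pdia6 (-0.028, SE 0.075) and the oxidase gene Ero1l (-0.087, SE 0.13), which supplies the oxidizing power, had overlapping groups, and both turned sign when 1 of the samples was left out. A second, dimmer Pdia6 probe differed by 0.045, the opposite sign of the brighter one.

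J-domain proteins bring substrates to BiP and start its ATP cycle, and none of the 3 members separated the genotypes. Dnajc3, also known as P58IPK, which additionally restrains PERK, measured -0.0018, -0.029 and 0.0018 in c-Maf KO, against -0.054, 0.11 and 0.12 in WT. WT replicate 1 was the lowest of the 6 samples, so the groups overlapped (difference -0.070, SE 0.068). Dnajb11 differed by -0.011 (SE 0.061) and Dnajb9 by -0.034 (SE 0.079). The 2 probes of Dnajb9 (ERdj4, an IRE1 regulator) disagreed in size. The dimmer one measured -0.13, -0.10 and -0.14 in c-Maf KO, against 0.19, 0.10 and 0.11 in WT, a difference of -0.26 with no overlap. The brighter one, which stands for the gene, overlapped.

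Sdf2l1, Manf and Creld2 encode small luminal proteins that are strongly induced by ER stress. Sdf2l1, which keeps BiP clients soluble with Dnajb11, measured -0.049, -0.094 and -0.12 in c-Maf KO, against 0.049, 0.087 and 0.21 in WT (chromosome 16, 17130426 to 17130485, mm9). All WT samples lay above all c-Maf KO samples, with WT replicate 3 the highest (difference -0.21, SE 0.066, limma, adjusted p = 0.303). Creld2 measured -0.10, -0.0031 and -0.022 in c-Maf KO, against 0.11, 0.0031 and 0.12 in WT, and WT replicate 2 came within 0.0062 of c-Maf KO replicate 2 (difference -0.12, SE 0.063). Manf, a secreted neurotrophic factor that binds BiP, differed by -0.034 (SE 0.058) with overlapping groups.

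The Creld2 probe is printed 10 times on each array, which shows the technical spread of a member. Relative to the array's 75th percentile, its mean log2 intensity was 5.79 on both c-Maf KO arrays, against 5.92, 5.82 and 5.92 on the arrays of WT replicates 1 to 3. The SD between the 10 spots of an array was 0.029 to 0.037. The spots of WT replicate 2 overlapped those of both c-Maf KO arrays, and the lowest spot of WT replicate 3 (5.84) lay below the highest of c-Maf KO replicate 3 (5.87), while all spots of WT replicate 1 lay above all c-Maf KO spots. The spread between spots of an array does not include culture, RNA preparation or hybridization.

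**Figure D2:**
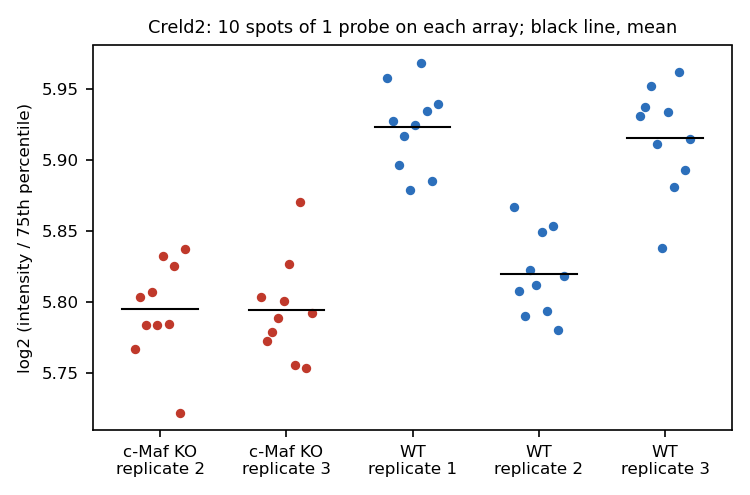
Log2 intensity of the 10 Creld2 spots on each of the 5 scanner arrays, relative to the array's 75th percentile (points; black lines are array means). The means are 5.79 on both c-Maf KO arrays and 5.92, 5.82 and 5.92 on the WT arrays, with an SD between spots of at most 0.037.

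Sec61b, a subunit of the channel through which new chains enter the ER, differed by 0.081 (SE 0.058), and its second probe by 0.059. Among the genes of ER-associated degradation, which returns misfolded proteins to the proteasome, Herpud1 and Syvn1 were lower in every c-Maf KO sample. Herpud1 encodes a membrane scaffold of the degradation complex. It measured -0.49, -0.085 and -0.098 in c-Maf KO, against 0.085, 0.091 and 0.19 in WT (chromosome 8, 96919117 to 96919176, mm9). Its value in c-Maf KO replicate 1 was far below the other c-Maf KO samples, and those lay below all WT samples with a gap of 0.17 (difference -0.34, SE 0.12, limma, adjusted p = 0.338). Without c-Maf KO replicate 1 the difference was -0.21. Syvn1 encodes HRD1, the ubiquitin ligase at the centre of that complex. It measured -0.054, -0.14 and -0.057 in c-Maf KO, against 0.079, 0.054 and 0.15 in WT (chromosome 19, 6053583 to 6053642, mm9). The gap between the groups was 0.11 (difference -0.18, SE 0.060, limma, adjusted p = 0.315). Sel1l, the partner that stabilizes HRD1, measured 0.048, 0.053 and -0.011 in c-Maf KO, against -0.046, -0.038 and 0.011 in WT, with overlapping groups (difference 0.054, SE 0.054). Edem1, which hands misfolded glycoproteins over for degradation, differed by -0.080 (SE 0.066), and by -0.035 without WT replicate 3.

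**Figure D3:**
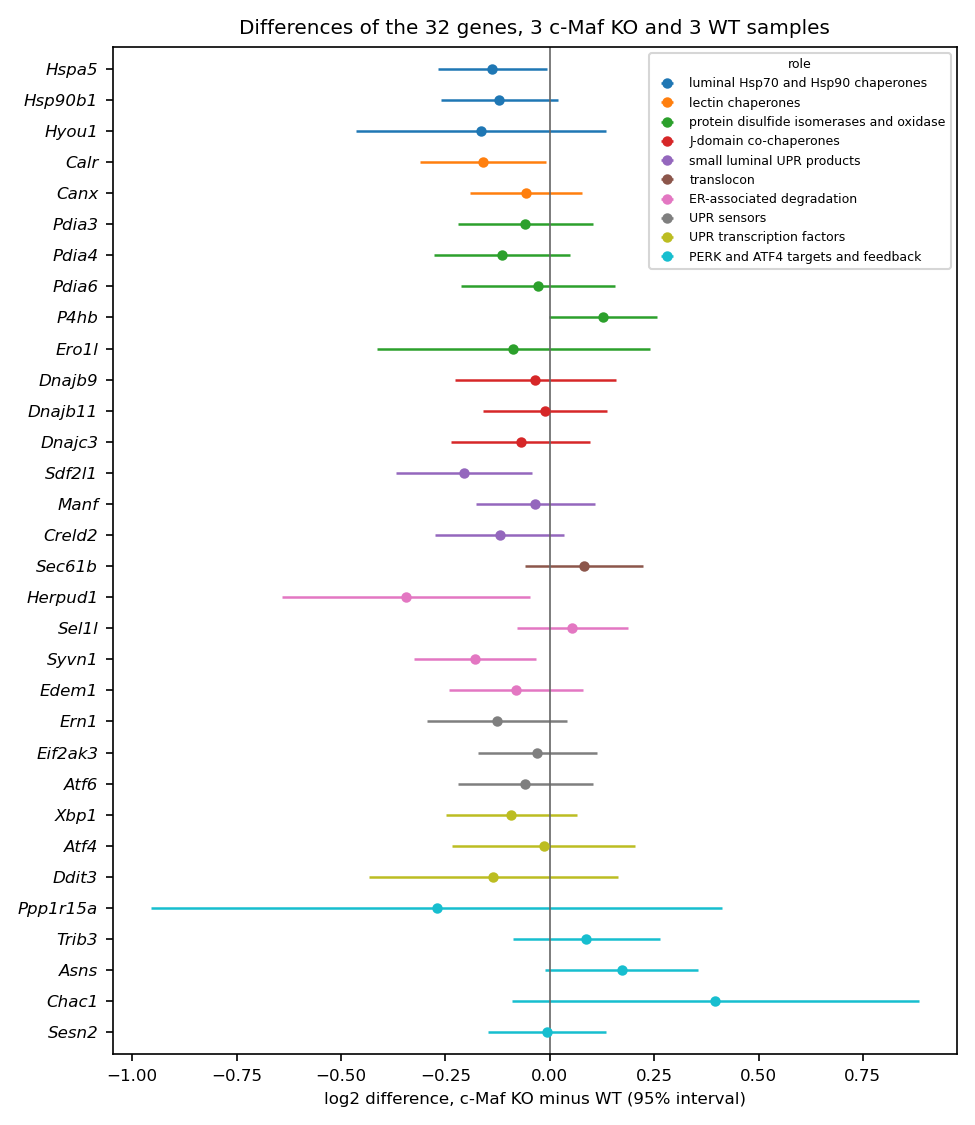
Log2 difference, c-Maf KO minus WT, for each of the 32 genes, with its unadjusted 95% interval from limma on 3 c-Maf KO and 3 WT samples, coloured by role. Most points lie between -0.2 and 0.2. Herpud1 has the lowest difference (-0.34) and Chac1 the highest (0.40), and the widest interval is that of Ppp1r15a.

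The 3 sensor genes overlapped between genotypes. Ern1 measured -0.16, -0.10 and 0.00080 in c-Maf KO, against 0.015, -0.00080 and 0.10 in WT, where c-Maf KO replicate 3 lay just above the lowest WT sample (difference -0.13, SE 0.068). Another Ern1 probe above background differed by -0.37, with c-Maf KO replicate 2 at -0.84. Atf6 differed by -0.058 (SE 0.066) and Eif2ak3 by -0.030 (SE 0.059). The levels of these mRNAs do not show whether the sensors were active.

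Xbp1 measured -0.0013, -0.060 and -0.17 in c-Maf KO, against 0.036, 0.011 and 0.0013 in WT. No c-Maf KO sample reached a WT sample, but the gap was 0.0026, and the difference of -0.092 (SE 0.064) was -0.047 without c-Maf KO replicate 3. A single probe represents Xbp1, so spliced and unspliced mRNA were not told apart. Atf4, whose protein is mainly set by translation, differed by -0.014 (SE 0.090) with WT replicate 2 the highest of the 6 samples (0.21). A dimmer Atf4 probe differed by 0.0445, the opposite sign. Ddit3, the pro-apoptotic factor CHOP, measured 0.13, -0.17 and -0.13 in c-Maf KO, against -0.11, 0.23 and 0.11 in WT, with wide overlap (difference -0.13, SE 0.12). Leaving out c-Maf KO replicate 1 gave -0.23, and leaving out WT replicate 2 gave -0.059.

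Of the targets and feedback genes of the PERK branch, Asns separated the genotypes. Asns measured 0.030, 0.059 and 0.0069 in c-Maf KO, against -0.0069, -0.21 and -0.20 in WT (difference 0.17, SE 0.075, limma, adjusted p = 0.419). Its gap was 0.014, since WT replicate 1 lay next to c-Maf KO replicate 3 while the other WT samples were lower. Chac1, an enzyme that breaks down glutathione, measured -0.041, 0.041 and 0.24 in c-Maf KO, against -0.32, 0.068 and -0.70 in WT. The groups overlapped, with WT replicate 3 the lowest sample, and the difference of 0.40 (SE 0.20) was 0.21 without it. Ppp1r15a encodes GADD34, which directs a phosphatase to eIF2 alpha and so restores translation. It measured 0.22, -0.13 and -0.23 in c-Maf KO, against 0.13, 0.80 and -0.25 in WT, where WT replicate 2 stood far above the rest. Its difference of -0.27 (SE 0.28) became 0.017 without that sample, which turns the sign. Trib3, a pseudokinase that feeds back on ATF4 and CHOP, differed by 0.087 (SE 0.072), and Sesn2, a stress-induced inhibitor of mTORC1, by -0.0057 (SE 0.058), both with overlap.

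Read against the sequences above, the 9 members with an ERSE or ERSE-II match were negative in 9 of 9 cases, with differences from -0.34 to -0.028 and a median of -0.12. For 7 of them (Hspa5, Hsp90b1, Calr, Canx, Creld2, Syvn1 and Herpud1) the groups did not overlap, where 8.86% of all genes were lower in this way. Of the 7, Canx and Creld2 overlapped after quantile normalization or median centring. The 20 members with neither match were negative in 14 cases, with a median of -0.032, 2 lower in every c-Maf KO sample (Sdf2l1 and Xbp1) and 2 higher (P4hb and Asns), shares close to the 8.86% and 11.1% of all genes. Xbp1 also overlapped after either normalization. The mean over the 9 was -0.10, -0.043 and -0.075 in c-Maf KO replicates 1 to 3, against 0.058, 0.031 and 0.097 in WT replicates 1 to 3. Over the 20 it was 0.031, -0.029 and -0.051 in c-Maf KO, against -0.025, 0.057 and -0.029 in WT. The means of the 9 thus separated the genotypes and those of the 20 overlapped, and the difference between these sets was not tested.

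Genes outside the member list with the same letters differed in sign. Of 8 measured non-members with an ERSE match, 4 were negative, with a median difference of 0.048. In every c-Maf KO sample 2 of them were lower, Derl3 and Pan2 (-0.18, SE 0.066), and 0 were higher. Of all genes, 8.86% were lower in this way and 11.1% higher. Derl3, a degradation gene of the Derlin family, measured -0.17, -0.25 and -0.19 in c-Maf KO, against 0.18, 0.17 and 0.31 in WT (difference -0.42, SE 0.065, limma, adjusted p = 0.129). Alg12, a mannosyltransferase gene, carries the same site letters as Creld2, free bases included, on the same chromosome. Whether both genes share the same site was not determined, so Alg12 may not be a separate carrier. It measured -0.011, 0.31 and -0.091 in c-Maf KO, against -0.21, 0.011 and 0.032 in WT. Of 6 measured non-members with an ERSE-II match, 2 were negative, with 1 lower and 1 higher in every c-Maf KO sample. No member promoter held the core of the UPR element TGACGTGG, which 0.603% of genes have. The ATF4-type element TTGCATCA was found in Chac1 and Herpud1 (6.9% of member promoters, 0.918% of all genes). The half-site TGCTGAC of large Maf factors was found in Asns, Ppp1r15a and Trib3 (10.3%, against 4.31% of all genes).

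Other genes of the pathway, on 7 lists of 151 names of which 142 were measured, did not lean the same way. At adjusted p under 0.05 limma called 0 of them. At unadjusted p under 0.05, 18 were higher and 1 lower, where 6.7% of all genes were higher and 5.86% lower. With a variance trend and robust estimation limma called 3, where 0.411% of all genes were called. These were Leprel2, a collagen prolyl 3-hydroxylase (0.58), and Slc7a11, the cystine transporter (0.52), both higher in c-Maf KO, and Derl3, lower. Of the 142, 35 had negative differences, and the median was 0.051 (0.031 on the 5 arrays). The groups did not overlap for 33 higher in c-Maf KO (23.2%) and 6 lower (4.2%), where the shares over all genes were 11.1% and 8.86%. These lists were drawn up with results of these data known.

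Collagen folding genes had the largest median of these lists, at 0.35, with 11 of 12 positive. In all, 8 were higher in every c-Maf KO sample (66.7%), where 11.1% of all genes were. Plod2, a collagen lysyl hydroxylase, measured 0.19, 0.55 and 0.32 in c-Maf KO, against -0.87, -0.60 and -0.19 in WT (difference 0.91, SE 0.19, limma, adjusted p = 0.191). Leprel4, which works with a collagen prolyl 3-hydroxylase, differed by 0.90 (SE 0.21). Gpx8, an ER peroxidase, differed by 0.94 (SE 0.21), and the prolyl isomerase genes Fkbp14 and Fkbp7 by 0.70 (SE 0.19) and 0.62 (SE 0.11). In each of these 5 genes every c-Maf KO sample lay above every WT sample, and WT replicate 1 lay nearer to c-Maf KO than WT replicates 2 and 3 did in all but Plod2.

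Genes of the translocon, signal peptidase and oligosaccharyltransferase were positive in 22 of 24 cases, with a median of 0.057 (0.020 on the 5 arrays) and Ssr4 (0.17, SE 0.073) and Ostc (0.13, SE 0.059) the largest without overlap. Other chaperones and cofactors were positive in 17 of 21 cases (median 0.077, and 0.045 on the 5 arrays), and other disulfide isomerases and oxidases in 10 of 15 (median 0.041, and 0.0088 on the 5 arrays), with Tmx4, a membrane thioredoxin, at 0.27 (SE 0.11). Other degradation genes were split, 12 positive and 11 negative (median 0.0050, and -0.044 on the 5 arrays), with Derl3, described above, lower in every c-Maf KO sample. Of other UPR regulators 14 of 19 were positive (median 0.043, and 0.016 on the 5 arrays), with the adaptor gene Nck1 at 0.22 (SE 0.065) and the eIF2 alpha kinase PKR (Eif2ak2) at 0.14 (SE 0.051).

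Of other genes downstream of ATF4 and CHOP, 21 of 28 were positive, with a median of 0.074. In all, 9 were higher in every c-Maf KO sample (32.1%), where 11.1% of all genes were. Pycr1, a proline synthesis enzyme, measured 0.77, 0.11 and 0.37 in c-Maf KO, against -0.11, -0.32 and -0.52 in WT (difference 0.73, SE 0.19, limma, adjusted p = 0.242). Nupr1, a stress-induced chromatin protein, differed by 0.56 (SE 0.11). Of the 5 members that are targets or feedback genes of the PERK branch, 3 were positive and 2 negative. Only Asns did not overlap among them, and it was higher in c-Maf KO with a gap of 0.014. The members Atf4 (-0.014) and Ddit3 (-0.13) were negative with overlapping groups.

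Fibroblast and stromal markers were higher in c-Maf KO in the same samples, with none past the test (smallest adjusted p = 0.191, limma). Of 16 listed, 15 were measured and all 15 were positive, with a median of 0.87. Of these 12 were higher in every c-Maf KO sample (80.0%), where 11.1% of all genes were. Lum was the one not well above background. Their mean was 0.18, 0.13 and 0.55 in c-Maf KO replicates 1 to 3, against -0.077, -0.93 and -0.63 in WT replicates 1 to 3. The collagen folding genes averaged 0.085, 0.12 and 0.20 in c-Maf KO, against -0.13, -0.39 and -0.32 in WT, with WT replicate 1 nearest to c-Maf KO in both lists. The part of stromal cells in the differences of P4hb, the collagen folding genes and the other members was not tested.

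All 8 macrophage markers were measured. Of these 7 were negative, with a median difference of -0.14, against -0.064 for the members. In every c-Maf KO sample 3 were lower (37.5%, against 8.86% of all genes) and 1 higher (12.5%, against 11.1%), none past the test. Their mean ranged from -0.19 to 0.015 in c-Maf KO and from 0.0064 to 0.069 in WT. Of the markers of B cells and of plasma cells, which are rich in ER, Cd79a, Cd79b, Sdc1 and Derl3 were measured. Sdc1, a plasma cell surface marker, was higher in every c-Maf KO sample (0.46) and Derl3 lower (-0.42), neither past the test, while Ms4a1, Jchain, Mzb1 and Tnfrsf17 did not reach 2 arrays well above background. Of 9 monocyte and neutrophil markers 7 were measured, 4 of them positive and 3 negative. Ly6g (1.55), Ly6c1 (1.39) and Ccr2 (0.73) were higher in every c-Maf KO sample, with limma adjusted p = 0.077, 0.081 and 0.077. These 3 were called with a variance trend and robust estimation. S100a8 (-0.39), S100a9 (-0.53) and Mpo (-0.97) were negative and Elane (0.19) positive, all with overlapping groups. The mean of the 7 ranged from -0.049 to 0.42 in c-Maf KO and from -0.38 to 0.098 in WT. For mast cells and basophils 4 of 8 were measured, for T and NK cells 2 of 7 and for erythroid cells 2 of 6. The mast cell and basophil mean ranged from -0.91 to 1.10 in c-Maf KO and from -0.19 to 1.56 in WT. The part of these cells in the members' differences was not tested.

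**Figure D4:**
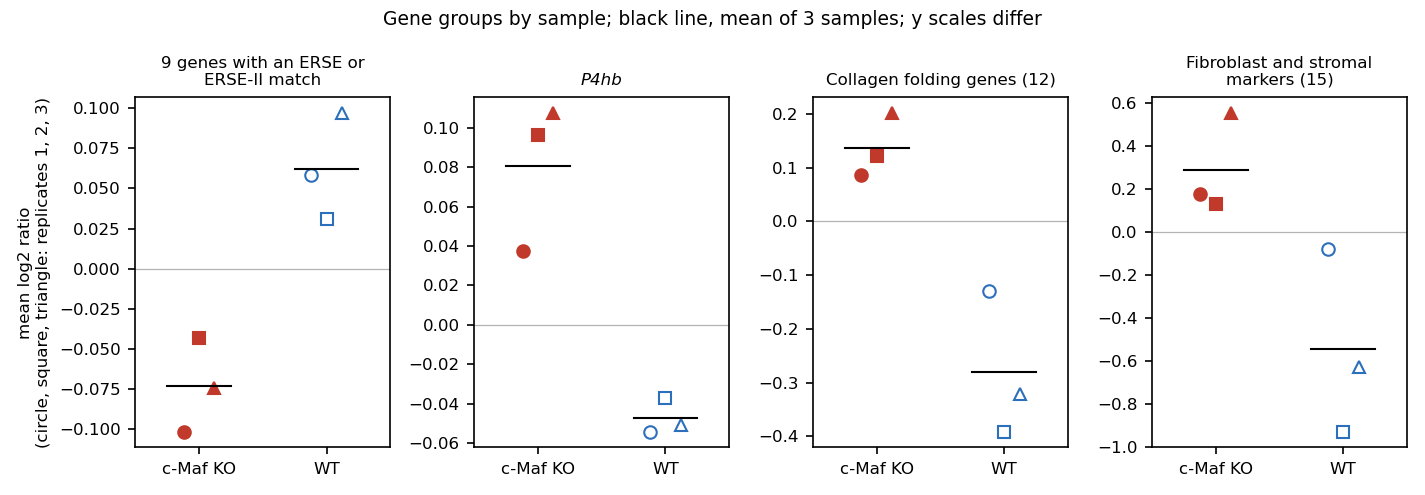
Mean log2 ratio in each sample (marks; black lines are means of 3 samples; the vertical scales differ) for the 9 members with an ERSE or ERSE-II match, for P4hb, for 12 collagen folding genes and for 15 stromal markers, with c-Maf KO left of WT. The first panel runs opposite to the other 3: its c-Maf KO samples lie between -0.10 and -0.043 and its WT samples between 0.031 and 0.097, while the stromal markers lie between 0.13 and 0.55 in c-Maf KO and between -0.93 and -0.077 in WT.

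The 5 scanner arrays, which are part of the same data, gave all 32 members the same sign as the value table. No member was called there either, and 6 had an unadjusted p under 0.05, where 7 of 20198 genes were called (0.0347%) and 11.1% had an unadjusted p under 0.05. With 2 c-Maf KO arrays the groups did not overlap for 15 members lower in c-Maf KO, where 16.1% of all genes were lower in this way, and for 2 higher, where 14.1% were. P4hb differed by 0.15 (SE 0.056), Hspa5 by -0.15 (SE 0.057) and Herpud1 by -0.21 (SE 0.061) on these arrays.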

How the data were processed

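Per the submitters' processing notes, spots were quantified in Agilent Feature Extraction, release 10.7.3.1. Per the file headers, the deposited intensity was detrended by the software without background correction, with surrogates for dim spots. The authors' value table holds linear ratios of a probe to its median over the 6 samples: the median log2 ratio was 0 for 100% of probes. The sources used here do not state how the authors scaled or filtered it. Its column medians were -0.057, 0.068 and -0.054 for c-Maf KO replicates 1 to 3 and 0.024, 0.0070 and -0.0088 for WT replicates 1 to 3. Its 5 columns with scanner files followed the processed intensity over the array's 75th percentile, with a median absolute log2 difference of at most 0.013 after centring.

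Control spots were left out, and so were outlier spots (134 to 167 of the 59305 non-control spots per array). Spots of a probe were averaged, and genes were kept whose probe was well above background on at least 2 of the 5 arrays. Differences of log2 ratios were tested with limma version 3.58.1 (R version 4.3.3) and Benjamini-Hochberg adjustment over all 20198 genes, at adjusted p under 0.05. The fit was tested on simulated data. Probe coordinates are those of the files (mm9). Of the members, 26 have 1 probe and 6 have several.

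The members, lists and tests were chosen with earlier results of these data known. All 32 members, Maf, and of each other pathway list up to 2 genes with the largest difference and no overlap between groups were to be named. Alg12, Pan2, Lum, Leprel2, Slc7a11 and the markers of other cells were named after their values were seen. Some genes that the rule or lists hold are not reported here. Samples with the same replicate number did not deviate together (correlations of -0.029, -0.061 and 0.039), so the numbers were not treated as pairs.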

Additional observations from a re-analysis of the deposited data

How the results depend on the processing

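No member was called in any of the 17 alternative settings in which the members were recomputed, with a smallest adjusted p of 0.218 (limma). The members' median stayed between -0.081 and -0.043. Of the members, 25 kept their sign in every setting, among them all 11 without overlap. Pdia6, Ero1l, Dnajb9, Dnajb11, Atf4, Ppp1r15a and Sesn2 turned in at least 1. For the 11 without overlap the sign could turn only where values were rescaled, as on the 5 arrays and after quantile normalization or median centring. Leaving out, averaging or weighting samples cannot turn groups that do not overlap, and the remaining settings left these differences as they were. The count of members lower in every c-Maf KO sample was 15 on the 5 arrays and 9 to 14 when 1 replicate was left out (14 without c-Maf KO replicate 1), against 9. It was 6 after quantile normalization and after centring each sample on its median, which lost Canx, Creld2 and Xbp1. The count higher was 4 with WT replicates 1 and 3, which share a tag in their file names, averaged, and 2 to 5 when 1 replicate was left out (5 without c-Maf KO replicate 3, and 5 without WT replicate 2), against 2. Of all genes, 16.1% were lower in this way on the 5 arrays and 13.1% to 15.6% with 1 replicate left out, against 8.86%, and 15.5% were higher with the averaged WT samples and 14.0% to 23.6% with 1 replicate left out, against 11.1%. Variance trend, array weights and the block leave the sample values unchanged, so the overlap of samples is that of the main setting. Over all genes, the 7 calls of the value table became 2 with no filter on dim probes, 22 with probes above background on all 5 arrays, 83 with trend and robust estimation, 2 with WT replicates 1 and 3 averaged, and 2 to 100 when 1 replicate was left out (100 without WT replicate 1). The 7 calls on the 5 arrays became 2, 1 and 80 with the first 3 of these changes, and 1 to 14 when 1 replicate was left out (14 without c-Maf KO replicate 2 and 11 without c-Maf KO replicate 3, where c-Maf KO is 1 array assumed to vary like the WT arrays, which alone give the spread). With the replicate number as a block, which the data did not bear out as a pairing, 3 genes were called in the value table, 0 on the 5 arrays and 0 members. The cause of these shifts was not tested. The number of arrays limits the precision: the unadjusted 95% intervals of the members reached 0.13 to 0.68 log2 units to either side, with a median of 0.16.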
